A study of Triticum aestivum with 8 samples.

Results

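Isolated accessible regions are places in the wheat genome where open chromatin was detected and no other open region lay within 100 kb on either side. Peaks of 4 ATAC-seq lists, for leaf, root, shoot apex and axillary bud, were merged wherever they overlapped by at least 1 bp, and a merged region was called isolated when the gaps to its left and its right neighbour on the chromosome both exceeded 100 kb. Of 221805 merged regions 9686 (4.37%) were isolated, and the remaining 212119 are called other regions. ATAC-seq finds accessible DNA by letting a transposase cut it and insert sequencing adapters. The plants were hexaploid bread wheat (Triticum aestivum), cultivar AiKang58, with 2 libraries for each tissue. Axillary buds of 1.0 to 2.0 cm came from plants labelled 6 weeks old that had spent 30 days at 4 °C, whereas the leaf, root and shoot apex samples are labelled 2 weeks old. The growth label of all 8 libraries gives 16 h of light (22 °C) with 8 h of dark (19 °C). Tissue, age and cold therefore cannot be told apart between the buds and the other tissues.

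Bread wheat carries 3 related subgenomes, A, B and D, each with 7 chromosomes, and most of its DNA consists of transposable elements. Genes are densest toward the chromosome ends and sparse in the wide middle part. In plants accessible chromatin is known to mark promoters and distant regulatory elements, and in large genomes such elements can lie many kilobases from the gene they act on. AiKang58 is known to carry a rye chromosome arm in place of the short arm of chromosome 1B. The regions could not be assigned to genes, because nothing on the genome build of the lists is given in the sources used here. Positions are those of the deposited lists, with starts counted from 1.

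Each tissue has 1 deposited list for both libraries, with positions alone and no height or count per library, so no difference between tissues has a replicate error. The sequencing depth behind the lists is unknown, and the absence of a peak does not show that chromatin there was closed. Tests compare isolated with other regions over the 7 homoeologous groups, each the mean of its A, B and D chromosome. Signs were flipped over the groups in a permutation test that was exact and two-sided, whose smallest p is 0.0156, with Benjamini-Hochberg adjustment over 19 tests and a threshold of 0.05. These 19 comparisons were chosen with earlier results of these data known. Chromosomes are not replicates of a tissue, and the p-values reflect how far chromosomes differ inside 1 set of lists. The members were chosen by the gaps between peaks of all 4 lists, so distances, positions and densities are given as descriptions with no test. Tissue sets and widths come from the same 4 merged lists, so their tests are not independent of that choice.

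The region with the widest empty space around it lay on chromosome 5A from 253117779 to 253118003. It was a leaf peak of 225 bp with 2329.9 kb of DNA free of any region on its left and 2492.9 kb on its right. The next 4 by the smaller of both gaps all lay in the first 240 Mb of 1B. Regions of any kind were sparse there, at 2.68 per Mb, against 11.99 on 1A and 15.8 on 1D over stretches of equal relative length. How this stretch of 1B relates to the rye arm named above was not tested, because nothing on the genome build is given. The gaps there therefore cannot be read as empty wheat chromatin. A shoot apex peak of 275 bp, from 211372348 to 211372622, had 2330.9 kb to its left and 2214.9 kb to its right. A region of 925 bp open in leaves and axillary buds, from 217632472 to 217633396, had 2096.6 and 2053.6 kb. A region of 500 bp open in roots and axillary buds, from 124867125 to 124867624, had 1900.7 and 2628.4 kb. The last was a root peak of 275 bp from 227495091 to 227495365, with 4145.8 and 1809.96 kb. None of these 5 regions had a peak in all 4 tissues.

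Isolated regions open in all 4 tissues also reached gaps of over 1 Mb on both sides. On 2D the region from 211562389 to 211563639 (1251 bp) had 1217.7 kb to its left and 1371.2 kb to its right. There the shoot apex peak covered 1150 bp and the root peak 1100 bp, against 400 bp for leaves and 348 bp for axillary buds. On 1B, again in its first 240 Mb, the region from 172256390 to 172257252 (863 bp) had 1137.7 and 1995.2 kb. On 4B the region from 162767701 to 162768625 (925 bp) had 1126.6 and 1135.5 kb.

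Most gaps were far smaller than these. The smaller of both gaps had a median of 170.4 kb (quartiles 128.3 and 253.1), and the larger had a median of 357.2 kb. The smaller gap exceeded 200 kb at 3736 isolated regions (38.6%), 500 kb at 511 and 1 Mb at 52. For 2980 isolated regions (30.8%) the nearest region was itself isolated. About as many isolated regions stood alone between denser stretches (4815, 49.7%) as formed unbroken runs with other isolated regions. Pairs held 2532 of them and runs of 3 held 1221, while the 97 runs of 5 or more held 574. Runs of 15 were the longest and occurred on 1B from 150777584 to 165768363 (14990.8 kb) and on 6B from 262275554 to 274387514 (12112.0 kb). The run on 1B, which lay in the sparse first 240 Mb of that chromosome, had 6 single-tissue regions and none of all 4 tissues. The run on 6B had 9 and 3.

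Isolated regions were spread along the chromosomes more evenly than the other regions and thinned out toward the ends. Within 20% of the length from a chromosome end lay 30.8% of isolated regions (95% Wilson interval 29.9 to 31.8) and 64.2% of other regions (63.98 to 64.39). In 20 equal bins of chromosome length, isolated regions ranged from 0.313 per Mb in the last bin to 0.893 per Mb in the bin from 45 to 50% of the length. Other regions ranged from 44.1 per Mb in the last bin down to 5.42 per Mb in the bin from 30 to 35%. In that sparsest bin 13.95% of the regions were isolated, against 0.704% in the last bin. The 10 Mb window with most isolated regions, on 5A from 210000001 to 220000000, held 19 of them among 87 regions, where windows with any held a median of 7.

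**Figure D1:**
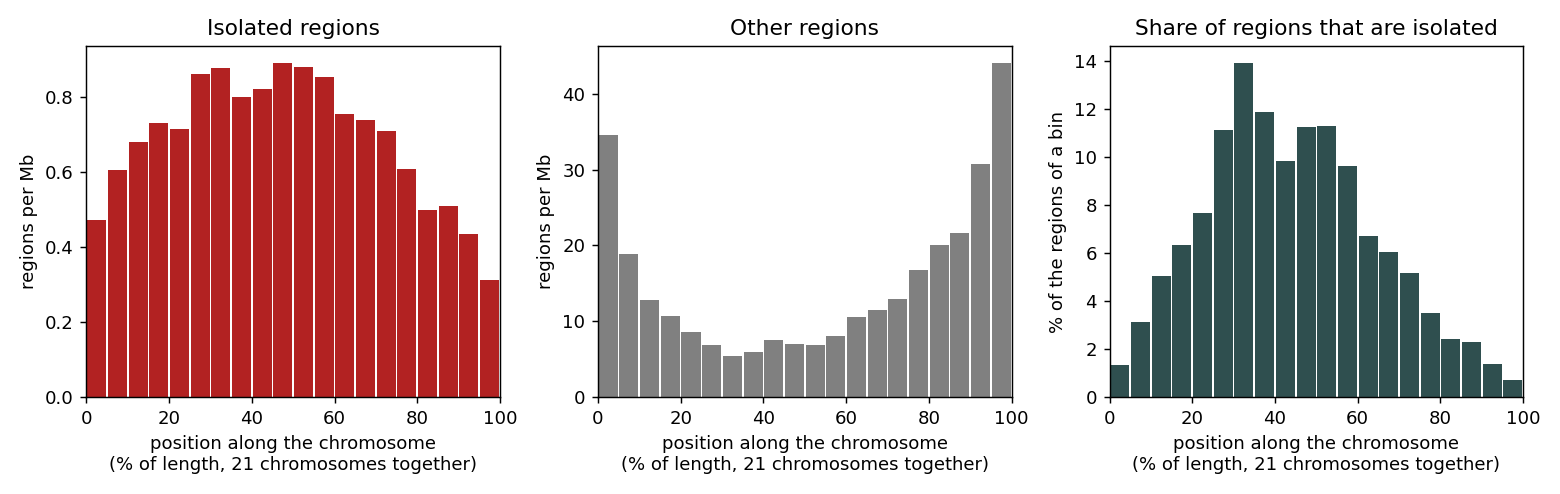
Isolated regions per Mb (left), other regions per Mb (middle) and the share of regions that are isolated (right) in 20 bins of relative position, 21 chromosomes together, with the last peak's end as chromosome length. Isolated regions stay between 0.313 and 0.893 per Mb, while other regions range from 5.42 to 44.1 per Mb and are densest at both ends.

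The D subgenome had the fewest isolated regions. A held 3648 (37.7%), B 3623 (37.4%) and D 2415 (24.9%), on 35.1%, 36.8% and 28.1% of the length. The density per Mb was 0.739 ± 0.047 for A, 0.699 ± 0.042 for B and 0.611 ± 0.033 for D (SD, n = 7 chromosomes each). Among all regions of a subgenome, 4.96% were isolated on A (95% interval 4.81 to 5.12), 4.93% on B (4.78 to 5.09) and 3.23% on D (3.10 to 3.36). The share ranged from 4.37 to 6.11% over A chromosomes, from 4.22 to 6.74% over B and from 2.78 to 3.96% over D, so every D chromosome lay below every A and B chromosome. All regions together had a density of 14.9 per Mb on A, 14.2 on B and 18.9 on D.

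Chromosome 1B had the highest share of isolated regions, 522 of its regions or 6.74%. In its first 240 Mb 200 of 643 regions (31.1%) were isolated, against 6.13% on 1A and 4.34% on 1D over stretches of equal relative length. That stretch had 2.68 regions per Mb, against 11.99 on 1A and 15.8 on 1D. Its isolated regions had a density of 0.833 per Mb, against 0.735 on 1A and 0.685 on 1D, and their smaller gap had a median of 286.4 kb, against 160.3 kb on 1A and 169.5 kb on 1D. It held 51 of the 511 regions isolated by over 500 kb. Whether this stretch belongs to the arm replaced by rye was not tested. The comparisons with all other regions and between subgenomes that passed also passed without chromosome 1B. The position-weighted comparisons and those with regions 10 to 100 kb from the next were not run without it.

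The tissue sets of isolated regions resembled those of other regions in their main classes. Of the isolated regions 4646 had a peak in a single tissue, which is 48.0% (47.0 to 49.0), against 45.2% (45.002 to 45.43) of other regions. Peaks in 2 tissues were found at 18.9% of isolated and 19.6% of other regions, and peaks in 3 tissues at 14.3% and 15.5%. All 4 tissues had a peak at 1825 isolated regions (18.8%, 18.1 to 19.6) and at 19.7% (19.6 to 19.9) of other regions. Over the 7 homoeologous groups the single-tissue share was 3.20 ± 1.33 percentage points higher in isolated than in other regions (SD, n = 7, higher in 7 of 7 groups, exact permutation p = 0.0156, adjusted p = 0.0198). The share of all 4 tissues was lower by 1.19 ± 1.65 points in the mean and lower in 6 of 7 groups, which did not pass the exact permutation test (p = 0.0781, adjusted p = 0.0928). Counting a tissue only where its peaks covered 50% of the region, the single-tissue difference was 0.61 points and did not pass (adjusted p = 0.175, exact permutation test).

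Leaf peaks were more frequent and shoot apex and bud peaks less frequent in isolated than in other regions. A leaf peak was present in 5585 isolated regions (57.7%, 56.7 to 58.6), against 51.1% (50.9 to 51.3) of other regions. For shoot apices the shares were 48.6% (47.6 to 49.6) of isolated and 55.9% (55.7 to 56.1) of other regions. For axillary buds they were 45.8% (44.8 to 46.8) and 52.0% (51.8 to 52.2), and for roots 52.0% (51.0 to 53.0) and 50.8% (50.6 to 51.0). The group differences were 6.42 ± 1.95 points for leaves, −7.97 ± 1.45 for shoot apices and −6.11 ± 0.97 for buds, each with the same sign in 7 of 7 groups (adjusted p = 0.0198 each, exact permutation test). For roots the difference of 0.75 ± 1.49 points did not pass (adjusted p = 0.262, exact permutation test). Counted by list, the share of peaks in isolated regions was 4.75% for leaves, 4.38% for roots, 3.78% for shoot apices and 3.78% for buds.

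**Figure D2:**
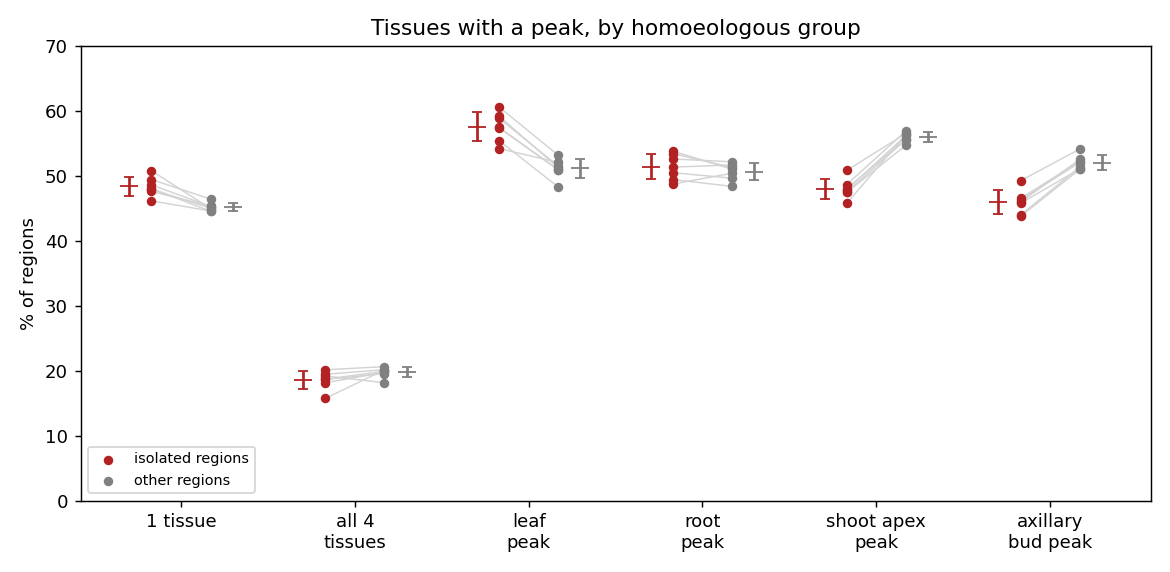
Share of regions (%) with a peak in 1 tissue, in all 4 tissues and in each tissue. Points are the 7 homoeologous groups, isolated regions left and other regions right, joined by group, with the mean and SD beside them. Leaf shares are higher in isolated regions in all 7 groups, and shoot apex and bud shares lower.

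Among regions of a single tissue, the leaf difference was larger than over all regions, which was not tested itself, and the bud difference was smaller. Leaf-only regions numbered 1490, or 32.1% of the single-tissue isolated regions, against 21.9% of the other single-tissue regions. Shoot-apex-only regions numbered 583, or 12.5%, against 20.2%. Bud-only regions made up 28.3% (1313) against 31.7%, and root-only regions 27.1% (1260) against 26.3%. The group differences were 10.3 ± 1.90 points for leaves, −7.77 ± 0.72 for shoot apices and −3.29 ± 1.55 for buds (adjusted p = 0.0198 each, exact permutation test, 7 of 7 groups each). The root difference of 0.74 ± 1.78 points did not pass (adjusted p = 0.391, exact permutation test). These tests too are not independent of the choice of members, and the bud-only difference was 2.48 points when weighted by position.

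Over all regions 4.37% were isolated, and of the 15 possible sets of tissues, leaves with axillary buds had the highest isolated share. Of 5210 such regions 369 (7.08%) were isolated, followed by 6.64% of leaf-only regions and 5.98% of regions of leaves, roots and shoot apices. The lowest shares were found for shoot apices with axillary buds (163 of 8583, 1.90%), for leaves, shoot apices and buds (2.65%) and for roots, shoot apices and buds (2.76%). Regions of all 4 tissues lay between these, at 4.18%, near the share over all regions. The set of leaf and bud alone thus made up 3.81% of isolated and 2.28% of other regions, and the set of apex and bud alone 1.68% of isolated and 3.97% of other regions. The shares of these sets were not tested and not weighted by position.

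Part of these contrasts moved with position. Leaf peaks are most frequent among regions in the middle of the chromosomes and bud peaks at the ends. In the inner 30% of the length 62.4% of isolated and 60.8% of other regions had a leaf peak, and in the outermost 5% at either end 40.3% of isolated and 41.5% of other regions. Bud peaks were found at 45.2% of isolated and 43.4% of other regions in the inner 30%, and at 56.8% and 62.0% in the outermost 5%. With other regions weighted to the position of the isolated ones, in 20 bins on each chromosome, the leaf difference was 0.49 ± 1.35 points (adjusted p = 0.412) and the bud difference −0.50 ± 1.22 points (adjusted p = 0.384), and neither passed the exact permutation test. The shoot apex difference was −8.32 ± 1.00 points under the same weighting and passed (adjusted p = 0.0247, exact permutation test). So did the single-tissue difference of 3.31 ± 1.41 points. The leaf-only share of single-tissue regions was still 3.53 ± 1.28 points higher, in 7 of 7 groups. The bud-only share was then 2.48 ± 1.07 points higher in isolated regions, the opposite of its sign without the weighting, and the root-only share was 2.80 ± 1.87 points higher (adjusted p = 0.0247 and 0.0424, exact permutation test).

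The contrasts also depended on which other regions were compared. Most other regions lay within 10 kb of the next one, and tissue sets changed with distance well below 100 kb. A shoot apex peak was present at 58.5% of regions with a neighbour within 1 kb, 56.5% at 1 to 10 kb, 47.9% at 10 to 30 kb, 46.6% at 30 to 50 kb and 46.4% at 50 to 100 kb. Isolated regions had 48.4% at 100 to 200 kb, 49.5% at 200 to 500 kb and 45.01% over 500 kb. The shoot apex share was thus lower from the class of 10 to 30 kb on, and over the 3 subgenomes together it stayed between 45.01 and 49.5% beyond that. On A it was 49.95% at 10 to 30 kb and 58.2% at 200 to 500 kb, and on D 46.3% and 40.7%.

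Leaf peaks followed another course. Their share was between 50.3 and 51.7% in the classes up to 50 kb and 53.6% at 50 to 100 kb. It was 56.0% (54.7 to 57.3) at 100 to 200 kb, 59.7% (58.0 to 61.4) at 200 to 500 kb and 64.2% (59.9 to 68.2) over 500 kb, where leaf-only regions made up 44.2% of the single-tissue regions. The outer 20% held 36.2%, 23.8% and 13.3% of the regions in these last 3 classes, so the distance classes differ in position too. Single-tissue regions made up 44.1% up to 1 kb, 51.0% at 30 to 50 kb, 48.6% at 100 to 200 kb, 46.6% at 200 to 500 kb and 48.7% (44.4 to 53.1) over 500 kb.

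Set against only those regions whose nearest neighbour was 10 to 100 kb away, the single-tissue share of isolated regions was lower, by 1.88 ± 1.11 points in 7 of 7 groups (adjusted p = 0.0371, exact permutation test). The leaf share was higher by 6.13 ± 2.12 points and the leaf-only share of single-tissue regions by 6.24 ± 2.37 points (adjusted p = 0.0371 each, exact permutation test). The root-only share was lower by 4.45 ± 1.84 points (adjusted p = 0.0371, exact permutation test). The shoot apex difference was 0.69 ± 1.78 points and the bud difference 0.33 ± 1.61 points, and neither passed (adjusted p = 0.412 and 0.609, exact permutation test). Of the regions at 10 to 30, 30 to 50 and 50 to 100 kb, 60.2%, 58.3% and 49.2% lay in the outer 20%, against 30.8% of isolated regions. Leaf peaks were rarer there, and distance and position were not weighted together, so the leaf differences of this comparison are not free of position.

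**Figure D3:**
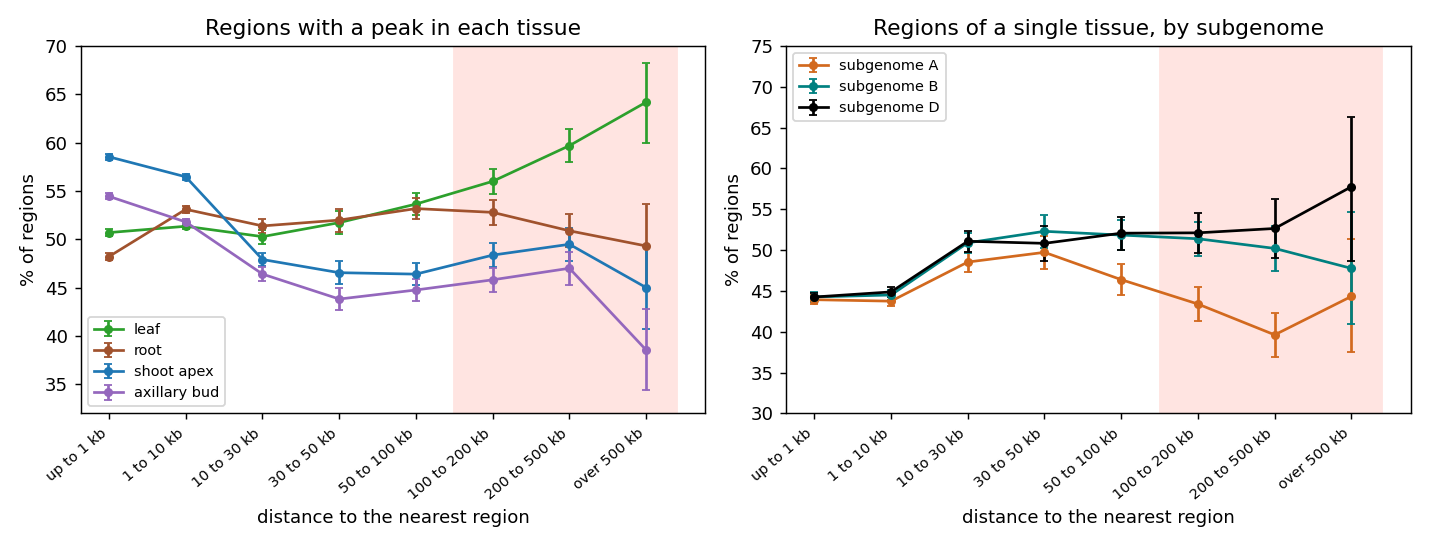
Share of regions (%) with a peak in each tissue (left) and share of single-tissue regions in each subgenome (right) by distance to the nearest region, with 95% Wilson intervals; isolated regions are the 3 shaded classes. The leaf share reaches 64.2% over 500 kb, and the shoot apex share drops between 1 to 10 kb and 10 to 30 kb. The single-tissue share on A lies below those on B and D in every class. Its intervals are apart from those of both B and D only from 50 to 500 kb, and those of A and B overlap over 500 kb.

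Values on both sides of the threshold are given for description. The 959 regions just inside it, with a smaller gap of 100 to 110 kb, had 49.3% single-tissue regions, 53.5% with a leaf peak and 47.2% with a shoot apex peak. The 1099 regions just outside it, with 90 to 100 kb, had 47.7%, 55.4% and 49.4%. Median widths were 440 bp inside and 450 bp outside.

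With members chosen without the list in question, the signs for leaves, shoot apices and buds were the same. Regions were merged and called isolated from 3 lists, and overlap with the fourth was counted among regions with the same number of tissues. Which tissues these were was not matched, and the 4 lists overlap. The comparison is therefore not independent of the contrasts above. Isolated regions overlapped a leaf peak in 50.7% of cases and other regions in 45.3% (difference 5.32 ± 1.03 points). For shoot apices the values were 46.1% and 51.8% (−5.68 ± 1.47), for buds 38.3% and 45.1% (−6.84 ± 1.13), and for roots 45.8% and 42.6% (3.15 ± 1.49). These 4 differences had the same sign in 7 of 7 groups and passed (adjusted p = 0.0198 each, exact permutation test). Weighted by position the leaf difference was 0.15 points and did not pass (adjusted p = 0.547, exact permutation test), while the other 3 did. Against regions 10 to 100 kb from the next, without weighting by position, only the leaf difference passed (4.42 points, adjusted p = 0.0371, exact permutation test). Of the 10158 regions isolated in the lists without shoot apices 88.6% remained isolated with all 4, against 81.7 to 83.5% when another list was the one left out.

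Isolated regions were narrower than other regions, also within the single-tissue and within the 4-tissue regions, the classes in which width was compared. Their median width was 431 bp (quartiles 300 and 762), against 557 bp (350 and 1000), and 241 of them (2.49%) reached 2 kb, against 6.99% of other regions. Single-tissue isolated regions had a median of 325 bp (quartiles 250 and 425) and other single-tissue regions 375 bp (275 and 501). For regions of all 4 tissues the medians were 1061 bp in isolated and 1325 bp in other regions. Widths and gaps come from the same merged peaks, so the tests of width are not independent of the choice of members. The group differences were −53.1 ± 5.78 bp for single-tissue and −270.1 ± 39.9 bp for 4-tissue regions (adjusted p = 0.0198 each, exact permutation test, 7 of 7 groups). Weighted by position they were −40.5 and −139.2 bp and passed, and against regions 10 to 100 kb from the next they were −25.8 bp, which passed, and −57.4 bp, which did not (adjusted p = 0.0371 and 0.0594, exact permutation test). By tissue, median widths of isolated and other single-tissue regions were 300 and 350 bp for leaves, 325 and 375 bp for roots, 300 and 350 bp for shoot apices, and 350 and 375 bp for buds.

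Some isolated regions were wide all the same. The widest was open in all 4 tissues and lay on 7A from 404466721 to 404476808 (10088 bp), with 299.9 and 129.6 kb on its sides. Its whole width was 1 shoot apex peak, of which leaf peaks covered 9225 bp, bud peaks 9438 bp and root peaks 7000 bp. The next lay on 2B from 711718970 to 711728869 (9900 bp) and on 4D from 25983079 to 25992857 (9779 bp), both open in all 4 tissues. On 2B bud peaks covered 3299 bp, against 7625 bp in leaves, 8800 bp in roots and 9900 bp in shoot apices. Of single tissues, the widest isolated region was a root peak of 3000 bp on 1A from 367381041 to 367384040. A leaf peak of 2675 bp lay on 3B from 153808624 to 153811298. A shoot apex peak of 1625 bp lay on 4A from 98785260 to 98786884, and a bud peak of 1503 bp on 1B from 663377200 to 663378702.

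The subgenomes differed in the tissue sets of their isolated regions. On A 42.1% (40.5 to 43.7) of isolated regions had a peak in a single tissue, against 50.8% (49.2 to 52.4) on B and 52.5% (50.6 to 54.5) on D. Single chromosomes ranged from 37.4 to 45.1% on A, from 46.5 to 52.3% on B and from 49.1 to 55.3% on D, so no A chromosome reached the lowest B or D chromosome. A was lower than B by 8.90 ± 3.39 points and lower than D by 10.4 ± 2.46 points, in 7 of 7 groups each (adjusted p = 0.0198 each, exact permutation test). B and D differed by −1.54 ± 3.45 points, which did not pass (adjusted p = 0.313, exact permutation test). Regions of all 4 tissues made up 22.6% of isolated regions on A, 17.1% on B and 15.8% on D.

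Other regions together had 44.6% single-tissue regions on A, 45.6% on B and 45.5% on D. Most of these lay within 10 kb of a neighbour, and those at 50 to 100 kb had 46.4% (44.5 to 48.2) on A, 51.8% (50.01 to 53.7) on B and 52.1% (50.02 to 54.1) on D, so the lower share on A was also seen outside the isolated regions. The contrast of isolated with all other regions ran in opposite directions, which was tested after the values were seen, in a family of 14 tests. Isolated regions had a lower single-tissue share than other regions on A (−2.65 ± 2.37 points, 6 of 7 chromosomes, adjusted p = 0.0398, exact permutation test). The share was higher on B (5.27 ± 1.92 points) and on D (6.99 ± 1.74 points), on 7 of 7 chromosomes each (adjusted p = 0.0219 each, exact permutation test). The difference between these contrasts was −7.92 ± 3.12 points for A against B and −9.63 ± 1.90 points for A against D (adjusted p = 0.0219 each, exact permutation test). Against only the regions 10 to 100 kb from the next, the contrast was −6.36 points on A, which passed (adjusted p = 0.0365, exact permutation test). It was −0.52 points on B and 1.25 points on D, which did not pass (adjusted p = 0.784 and 0.298, exact permutation test). The A contrast on its own missed the threshold with any of 6 of the 7 chromosomes left out (adjusted p up to 0.0795, exact permutation test). Over all 7 omissions it ranged from −3.16 to −1.97 points.

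Shoot apex, root and leaf peaks differed between subgenomes in this contrast, and bud peaks did not pass. A shoot apex peak was present at 55.8% of isolated regions on A, 44.99% on B and 43.1% on D, where other regions had 57.0%, 55.3% and 55.5%. A root peak was present at 57.1%, 50.1% and 47.1% of isolated regions and at 50.7%, 50.2% and 51.5% of other regions. A leaf peak was present at 61.1%, 55.0% and 56.4% of isolated and 51.8%, 50.9% and 50.5% of other regions. The bud shares were 46.0%, 46.1% and 45.2% of isolated and 52.0%, 52.4% and 51.5% of other regions. Between A and D the contrast of isolated with other regions differed by 11.5 ± 2.15 points for shoot apex peaks, 11.1 ± 3.31 for root peaks and 3.60 ± 2.57 for leaf peaks (adjusted p = 0.0219 each, exact permutation test). For bud peaks it differed by 0.31 ± 2.65 points (adjusted p = 0.791, exact permutation test). Weighted by position, the leaf difference between A and D was 2.26 points and did not pass (adjusted p = 0.219, exact permutation test). With peaks of at least 507 bp, it was 0.77 points for shoot apices, 2.78 for roots and 2.87 for leaves between A and D, and none of them passed (adjusted p = 0.503, 0.438 and 0.146, exact permutation test).

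**Figure D4:**
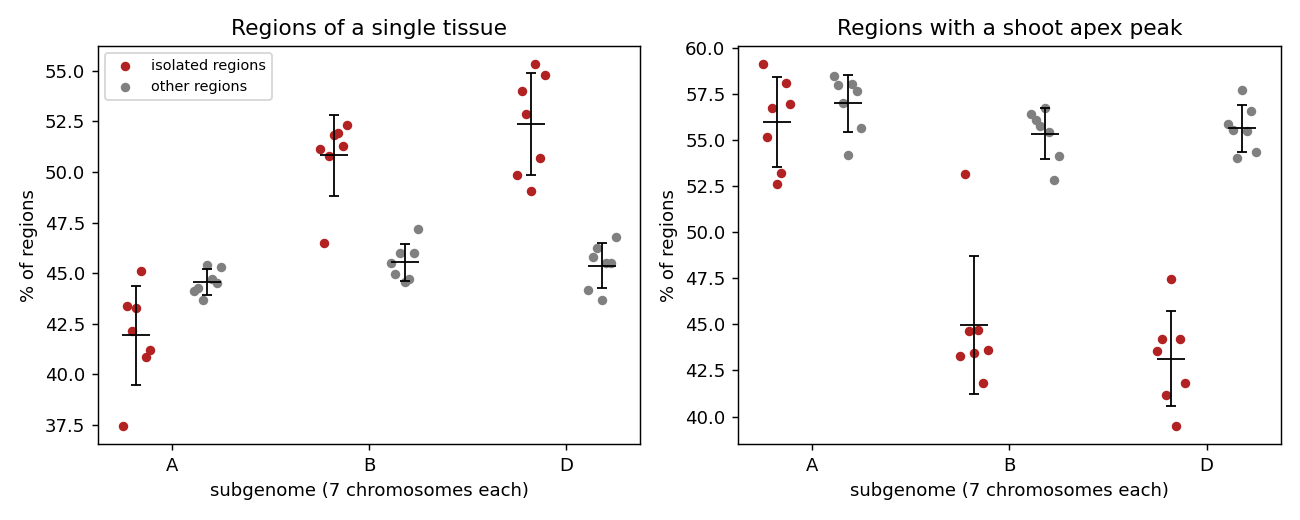
Share of regions (%) of a single tissue (left) and with a shoot apex peak (right) on each chromosome, isolated regions left and other regions right within each subgenome, with the mean and SD of 7 chromosomes. The isolated regions of A lie at 37.4 to 45.1% single-tissue, below those of B and D, and chromosome 2B stands apart from the other B chromosomes in both panels.

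The subgenomes lay further apart in the inner part of the chromosomes than in the outer part, a difference that was not tested itself. In the inner 60% of the length 39.3% of isolated regions on A were of a single tissue, against 49.1% on B and 52.2% on D. In the outer 20% at either end the shares were 49.0%, 54.4% and 53.4%, and no pair of subgenomes passed there (adjusted p = 0.117 for A against B and A against D, exact permutation test). By distance, the share on A was 43.9% up to 1 kb, 49.7% at 30 to 50 kb, 46.4% at 50 to 100 kb, 43.4% at 100 to 200 kb, 39.6% at 200 to 500 kb and 44.3% (37.5 to 51.4) over 500 kb. On B it was 44.3%, 52.3%, 51.8%, 51.4%, 50.2% and 47.8% (40.96 to 54.6) in the same classes, and on D 44.3%, 50.8%, 52.1%, 52.1%, 52.6% and 57.8% (48.7 to 66.4). Among peaks no narrower than 507 bp, the median over all lists, with isolated regions called anew, the subgenome contrasts did not pass. There A differed from B by −3.74 and from D by −2.31 points in the single-tissue share of isolated regions (adjusted p = 0.0928 and 0.140, exact permutation test).

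Single-tissue isolated regions were also compared with their nearest region. The nearest region of a root-only isolated region had a root peak in 55.9% of cases, against 48.8% for isolated regions of another single tissue. The corresponding shares were 56.9% and 50.6% for shoot apices, 56.4% and 54.6% for leaves and 48.4% and 45.1% for buds. These shares are descriptions, since neighbours share their place on the chromosome.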

How the data were processed

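ATAC-seq peak lists of 4 tissues of wheat AiKang58 were used, 1 list for the 2 libraries of each tissue. Per the submitters' processing notes, Trimmomatic 0.36, Bowtie2, MACS2 and bedtools were used. On the genome build, the peak threshold and the handling of replicates nothing is given in the sources used here. The deposited lists hold chromosome, start and end of each peak on 21 chromosomes, with no unit beyond base pairs. The narrowest peak has 201 bp.

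Peaks were merged with Python 3.11.15, numpy 2.4.6, pandas 2.3.3 and scipy 1.17.1. Touching peaks stayed separate, and the first and last region of a chromosome were never isolated. Length was the end of the last peak (14065 Mb in all). Intervals of shares are 95% Wilson intervals and reflect counting error alone. The merging, the distances and the sign-flip test were tested on simulated data. The members, the comparisons and the rule for named regions (those with the largest smaller gap, the widest, the longest run and the fullest 10 Mb window) were chosen with earlier results of these data known. The gene table on hand belongs to an assembly not shown to match the lists, so it was not used, and no sequence is printed. The family of 14 subgenome tests, the split into inner and outer parts and the distance classes were added after seeing the data. The other alternatives were 50 and 200 kb, merging gaps of 500 bp, wide peaks only, equal list sizes, end regions counted, no 1B, position weighting, 50% cover, regions 10 to 100 kb apart, 21 chromosomes as units, and a list or group left out.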

Additional observations from a re-analysis of the deposited data

Results flagged for a closer look

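Among the 7 B chromosomes, 1B stood apart with 6.74% of its regions isolated. Chromosome 2B stood apart with the lowest single-tissue share of isolated regions, 46.5%, and with the highest share of them holding a shoot apex peak, 53.1%. Dixon's test marked these 3 values as far from the nearest other chromosome, with a gap over range of 0.640, 0.744 and 0.745. It was run in 42 checks, with the lowest and the highest of the 7 chromosomes checked separately. Chance marks about 1 in 20 sets of 7 chromosomes when both ends are counted together.

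The contrast of isolated with other regions differed between subgenomes in 8 of the tests added after the data were seen. For the single-tissue share the difference was −7.92 points for A against B and −9.63 for A against D. For leaf peaks the values were 5.24 and 3.60 points, for root peaks 6.92 and 11.1, and for shoot apex peaks 9.37 and 11.5 (adjusted p = 0.0219 each, exact permutation test, 7 of 7 groups each). With peaks of at least 507 bp none of these 8 differences passed. Against regions 10 to 100 kb from the next, leaf A against D (3.24), root A against B (4.49) and shoot apex A against B (7.12) did not pass (adjusted p = 0.0729, 0.0729 and 0.0625, exact permutation test).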

How the results depend on the processing

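No paired analysis was possible because each tissue has 1 list for both libraries. Single replicates could not be left out either, so homoeologous groups were left out in turn. Values are differences in percentage points unless said otherwise, each from the exact permutation test, and the cause of a change was not tested. A difference is called reversed when its sign changed, whether or not it passed. Over the alternatives the adjusted p (exact permutation test) reached 0.175 for the single-tissue share, 0.412 for the shares with a leaf and with a shoot apex peak and 0.609 for the share with a bud peak.

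With isolation set at 50 kb there were 17610 isolated regions, 39.1% in the outer 20% and 26.7% on D. There the all-4-tissue difference (−1.88) and the root-only difference (2.86) passed, and the single-tissue difference within A (−0.61) did not. At 200 kb there were 3736, with 22.3% and 22.8%. The root (−0.90) and root-only (−1.57) differences reversed there, and the root overlap with isolation from the other lists (1.87) no longer passed. B minus D passed for isolated regions (−3.82) and for the contrast with other regions (−4.05).

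With gaps of up to 500 bp merged, the all-4-tissue difference (−1.80) passed, the root (−1.20), root-only (−1.61) and A minus B bud (−0.37) differences reversed, and the difference within A (−1.31) did not pass. With peaks of at least 507 bp, 36.3% of isolated regions lay in the outer 20% and 26.6% on D. The all-4-tissue difference (−2.28) passed, and the root (−1.19) and root-only (−0.45) differences reversed. The single-tissue shares of isolated regions differed by −3.74 for A minus B and −2.31 for A minus D, which did not pass, and by 1.44 for B minus D, which reversed. The difference within A reversed (2.20), and those within B (5.10) and D (4.46) did not pass. The contrasts were −2.90 for A minus B and −2.26 for A minus D, which did not pass. They reversed to 0.64 for B minus D and to −0.22 for buds in A minus D. Leaf, root and shoot apex contrasts did not pass for A minus B (2.26, 1.23 and 1.31) or A minus D (2.87, 2.78 and 0.77).

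With lists cut to equal numbers of peaks the root-only difference (1.60) passed. Without chromosome 1B 26.4% of isolated regions lay on D, and the A minus B bud contrast reversed (−0.56). With other regions weighted by position, the leaf (0.49), bud (−0.50) and leaf overlap (0.15) differences did not pass, the root (1.85) and root-only (2.80) differences did, and the bud-only difference reversed (2.48). With a tissue counted at 50% cover, the single-tissue difference (0.61), that within B (1.91) and the A minus B contrast (−5.71) did not pass, nor did the leaf contrasts (2.84 for A minus B, 1.01 for A minus D) or those of A minus B for root (4.08) and shoot apex (7.28). The root difference (2.42) passed, and the all-4-tissue difference (0.54) and the bud contrasts of A minus B (−2.06) and A minus D (−2.51) reversed.

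Against regions 10 to 100 kb from the next, the single-tissue (−1.88), all-4-tissue (2.13), root (−0.45), shoot apex (0.69), bud (0.33) and root-only (−4.45) differences reversed, as did that within B (−0.52) and the A minus B bud contrast (−0.28). Of these reversed values only the single-tissue and root-only differences passed. The apex-only (−0.43), bud-only (−1.35), root overlap (0.81), apex overlap (−0.74), bud overlap (−0.54) and within-D (1.25) differences did not pass, nor did the width of 4-tissue regions (−57.4 bp) or the contrasts of A minus D for leaf (3.24) and of A minus B for root (4.49) and shoot apex (7.12). The outer share was 32.6% without the root list, 32.02% without the bud list and 13.3% for an outer 10%. In the outer 20% alone, A minus B (−5.33) and A minus D (−4.32) did not pass and B minus D reversed (1.01).

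Leaving out a homoeologous group gave −1.56 to −0.65 for the all-4-tissue share, −3.16 to −1.97 within A, −0.56 to 1.03 for A minus B buds and −0.21 to 0.90 for A minus D buds. It changed no other call. Depth per library is unknown, so a missing peak and a shallow library cannot be told apart.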
